A study of Mus musculus with 2 samples.

Results

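Effector genes of ganglion cells and young neurons, meaning genes for the structural, RNA-binding and surface proteins of the cell rather than for its transcription factors, were examined for open chromatin in the embryonic mouse retina. They are Gap43, Stmn2, Nefl, Nefm, Rbpms, Thy1, Sncg, Elavl4, Dcx and Tubb3, 10 of the 21728 protein-coding genes on chromosomes 1 to 19 and X. They were taken by name, and the rule that chose them uses no value in the files. For each gene every DNase I peak was collected that overlapped the gene body or the 50 kb on either side of it. A peak within 1 kb of any annotated transcription start site (TSS) of the gene is called its promoter peak, and a peak over 1 kb from every annotated TSS of any gene is called distal. The tissue was whole retina of B6NCrl mouse embryos at embryonic day 14.5, male and female tissue pooled, with no treatment and no second condition. The labels name 2 biological replicates, which carry different biosample labels but the same donor label, so their spread may be smaller than that between litters. The assay was DNase-seq, which sequences the ends left where the enzyme DNase I cuts exposed DNA in nuclei.

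Ganglion cells are among the earliest neurons born in the retina and the ones whose axons form the optic nerve. A newborn ganglion cell grows an axon, fills it with microtubules and neurofilaments and builds an RNA-binding and membrane protein repertoire typical of neurons. Gap43 encodes a growth cone protein, Stmn2 a tubulin-binding protein of growing axons, Tubb3 the neuronal beta-tubulin and Dcx the microtubule-associated protein doublecortin of migrating and young neurons. Nefl and Nefm encode the light and medium neurofilament subunits. Elavl4 encodes the neuronal RNA-binding protein HuD, and Rbpms an RNA-binding protein that serves as a marker of ganglion cells. Thy1 encodes a surface glycoprotein and Sncg encodes gamma-synuclein, both widely used as ganglion cell markers in the adult retina. Many effector genes of neurons carry an RE1 element, the DNA sequence bound by the repressor REST, which keeps such genes silent in progenitors and in cells that are not neurons.

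Replicate 1 had 165269 distinct peaks and replicate 2 had 219308. Each peak carries a deposited score between 1 and 150, whose meaning is not stated, and the median score was 29 in replicate 1 and 48 in replicate 2. Scores were therefore turned into ranks within the library, where 100 is the strongest peak. The number of reads is unknown. The progenitor genes Rax, Six3, Six6, Lhx2 and Pax6 each had a promoter peak in both libraries. So did 3 of 6 genes of pigment epithelium, 3 of 6 of muscle, 2 of 6 of lens, 2 of 6 of endothelium and 0 of 6 of microglia and blood. Dcx, Tubb3 and most of the other genes are used by several kinds of neuron, and a bulk library cannot tell fewer cells with an open site from less cutting in each cell.

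All 10 genes had a promoter peak in both libraries, against a background of 69.3% of protein-coding genes (70.3% in replicate 1 and 71.9% in replicate 2). The peaks were of moderate strength. The median promoter rank, taken at the strongest promoter peak of each gene, was 88.5 in replicate 1 and 90.5 in replicate 2. Among all genes with a promoter peak it was 94.98 in replicate 1 and 95.9 in replicate 2, with quartiles of 87.0 and 97.9 in replicate 1 and 88.3 and 98.2 in replicate 2. In both libraries 9 of the 10 genes ranked below that median, while Tubb3 was below it in replicate 1 and above it in replicate 2. A rank of 80 or more in both libraries was reached by 7 of the 10 genes, against a background of 57.6% of all genes. That share counts genes without a promoter peak too, and among the 15063 genes with one in both libraries 12512 reached it. A rank of 90 or more in both was reached by 3 of 10 (Tubb3, Gap43 and Nefm), against 48.1% of all genes and 10457 of those 15063. Gap43 reached both limits only with the peak at an internal start, and its coding start had ranks of 69.5 and 81.6. The 10 genes had a median of 3.5 promoter peaks in each library and all genes a median of 2, so the choice of the strongest peak was made among more peaks here.

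**Figure D1:**
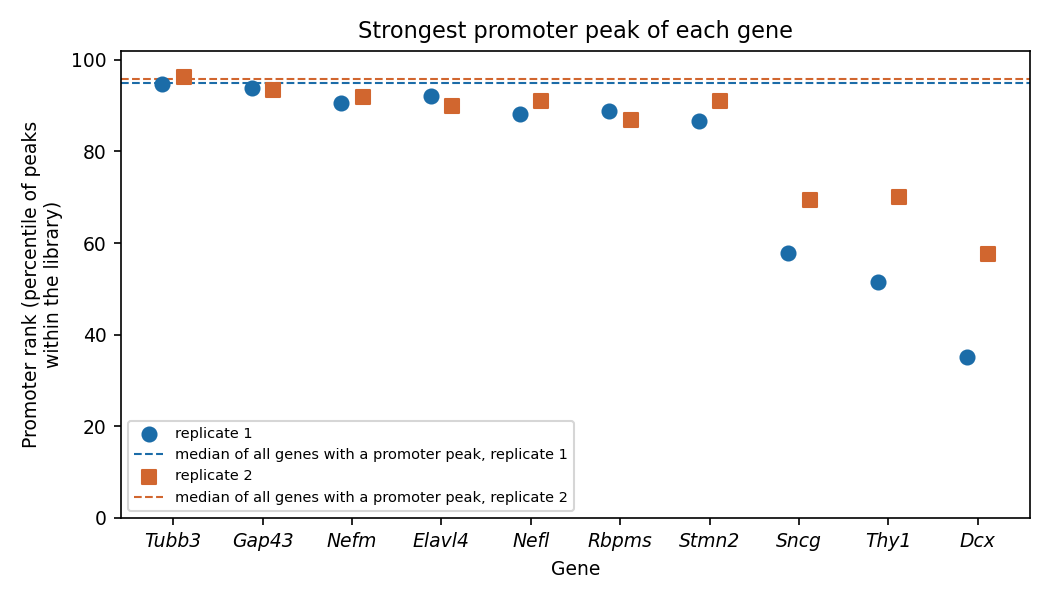
Promoter rank of the 10 genes (percentile of the peak score within the library, strongest promoter peak), ordered by the lower of both replicates, with circles for replicate 1 and squares for replicate 2. Dashed lines mark the medians over all genes with a promoter peak, 94.98 and 95.9. The 7 genes on the left lie above 86 in both libraries, Gap43 by its internal start. Sncg, Thy1 and Dcx lie at 70.1 or below.

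Gap43 and Stmn2, the genes of axon growth, differed in where their strongest peak lay. The Gap43 gene spans chr16:42248442-42340651 on the minus strand (mm10). At its coding TSS the strongest peak had a score of 45 (rank 69.5) in replicate 1 and 87 (rank 81.6) in replicate 2. A stronger peak, with scores of 101 and 115 and ranks of 93.8 and 93.4, lay 64.0 kb into the gene in intron 2, within 1 kb of the start of a noncoding Gap43 transcript. The promoter rank of Gap43 therefore belongs to the internal start, and the ranks at the coding start were lower in both libraries. Stmn2 (chr3:8509360-8561606, plus strand) had its peak at the coding start, with scores of 76 and 108 and ranks of 86.6 and 91.1. A second annotated Stmn2 start, of a noncoding transcript 50906 bp downstream, had no peak in either library.

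Nefl and Nefm are neighbours on chromosome 14 and are transcribed toward each other, and in the annotation used here a Nefm transcript runs on through Nefl. Nefm (chr14:68082590-68124846, minus strand) had promoter scores of 87 and 110, ranks 90.5 and 91.8. Nefl (chr14:68083863-68089095, plus strand) had scores of 80 and 108, ranks 88.2 and 91.1. The promoters of the pair thus lay within 3 rank points of each other in each library.

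Tubb3 and Dcx, the microtubule genes, marked the top and the bottom of the 10. Tubb3 (chr8:123411424-123422015, plus strand) had promoter scores of 106 and 127, ranks 94.8 and 96.4. Dcx (chrX:143855842-143933311, minus strand) had scores of 23 and 54, ranks 35.2 and 57.7. The Dcx peak was thus weak for a promoter in both libraries, although in replicate 2 it lay in the stronger 50 percent of all peaks. With the weaker 50 percent left out, 9 of the 10 genes had a promoter peak in both libraries, and Dcx lost its peak in replicate 1 alone. Its hotspot, the broader region of cutting around the peak, was 306 bp wide in replicate 1 with a −log10 false discovery rate of 2.26. In replicate 2 there were 3 hotspots at the promoter, the widest of 412 bp, and the highest value stood at the ceiling of 100.

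The RNA-binding genes Elavl4 and Rbpms have several annotated starts, and most of the internal ones of Rbpms were without a peak. Elavl4 (chr4:110203722-110351909, minus strand) had promoter scores of 93 and 105 at its 5′ end, ranks 92.1 and 89.97. Its TSSs fall into 6 clusters, of which 4 had peaks in both libraries. The cluster 64382 bp downstream of the 5′ end holds 6 transcripts and had its strongest peak at ranks 82.7 and 87.8. The clusters 59187 and 61016 bp downstream had ranks between 66.0 and 76.6. Of the 9 Elavl4 promoter sites shared by both libraries, 2 lay at the 5′ end and 7 in this internal start region. Rbpms (chr8:33782643-33929863, minus strand) had scores of 82 and 98 at its 5′ end, ranks 88.9 and 86.9. Of its 8 TSS clusters, 2 had a peak in both libraries, and the internal one of these, 132649 bp downstream, had ranks of 80.1 and 70.1.

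Thy1 and Sncg, the adult ganglion cell markers, had peaks that were weak for promoters. Thy1 (chr9:44043384-44048579, plus strand) had scores of 30 and 68, ranks 51.5 and 70.1. Sncg (chr14:34370274-34374789, minus strand) had scores of 34 and 67, ranks 57.9 and 69.4, in a single peak that also lies within 1 kb of an annotated start of Mmrn2. At Sncg the peak cannot be assigned to either gene. The strong peaks in the Thy1 window were promoters of the neighbour Usp2, with ranks up to 97.9 in replicate 1 and 98.4 in replicate 2.

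The share of genes with an open promoter differs with CpG content, so each gene was also set beside the genes of its own bin out of 10 bins of CpG observed over expected. Stmn2 and Tubb3 ranked above the median of the open genes in their bin in both libraries. Stmn2 had ranks of 86.6 and 91.1 against bin medians of 79.6 and 79.4, in a bin where 34.1% of genes had a promoter peak in both libraries. Gap43 was above its bin medians of 81.7 and 84.6 with the peak at its internal start (93.8 and 93.4) and below them with the peak at its coding 5′ end (69.5 and 81.6), where the CpG content was measured. The other 7 genes ranked below their bin medians in both libraries. Thy1 had ranks of 51.5 and 70.1 against bin medians of 88.9 and 91.8, and Dcx had 35.2 and 57.7 against 81.7 and 84.6. Nefl, Nefm, Elavl4 and Rbpms, which lie in bins 8 and 9 with nearly every gene open, had ranks of 86.9 to 92.1 against bin medians of 96.5 to 97.8.

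A set of 40 paralogs and other structural genes of neurons and their axons was compared with the 10 genes. All 40 had a promoter peak in both libraries. Their median promoter ranks were 93.6 in replicate 1 and 95.3 in replicate 2, above the 88.5 and 90.5 of the 10 genes. A rank of 80 or more in both libraries was reached by 34 of these 40, and 90 or more by 24. The 3 highest by the lower of both ranks included 2 broadly expressed paralogs. The beta-tubulin gene Tubb4b had ranks of 99.7 and 99.9, the ubiquitous Elavl paralog Elavl1 99.5 and 99.7, and Dpysl2, which encodes a protein of axon outgrowth, 99.3 and 99.8. Tubb3 lay below Tubb4b and Tubb5 (98.5 and 99.8), Stmn2 below Stmn1 (99.7 and 98.9), and Elavl4 below Elavl1. Other paralogs ranked below these genes in both libraries. Tubb2a (94.2 and 95.2) and Tubb4a (89.2 and 89.6) lay below Tubb3, Stmn3 (81.2 and 89.6) and Stmn4 (86.2 and 89.97) below Stmn2, Nefh (87.8 and 89.1) below Nefl and Nefm, and Rbpms2 (83.6 and 82.1) below Rbpms. At the bottom were Dclk3 with 66.0 and 70.8, L1cam with 72.4 and 73.5, and the intermediate filament gene Prph with 74.4 and 74.8.

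The transcription factor genes of ganglion cells had higher median promoter ranks than the effector genes. All 10 factor genes had a promoter peak in both libraries, and 9 of 10 reached a rank of 80 in both, against 7 of the 10 effector genes. These 7 include Gap43 by its internal start alone. Their median ranks were 96.3 and 97.5. Sox11 had 99.05 and 99.3, Sox4 98.1 and 99.9, Ebf3 99.3 and 97.8, Isl1 98.7 and 97.3, Ebf1 96.3 and 99.1, and Isl2 96.3 and 98.0. Pou4f1 stood at 95.4 and 94.0, Atoh7, the factor that gives progenitors competence for the ganglion cell fate, at 94.2 and 89.1, and Pou4f2 at 84.5 and 88.7. Pou4f3 was lowest at 66.9 and 62.7. The ranges overlap, since Tubb3, Nefm, Nefl, Stmn2 and Elavl4 ranked above Pou4f2 and Pou4f3 in both libraries. Gap43 ranked above Pou4f2 only with the peak at its internal start. No test was made of these differences, because the genes of a list are not replicates. Median CpG observed over expected also differed, at 0.516 for the effector genes, 0.626 for the other neuronal structural genes and 0.750 for the regulators. Its part in the ranks of the 3 lists was not tested.

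**Figure D2:**
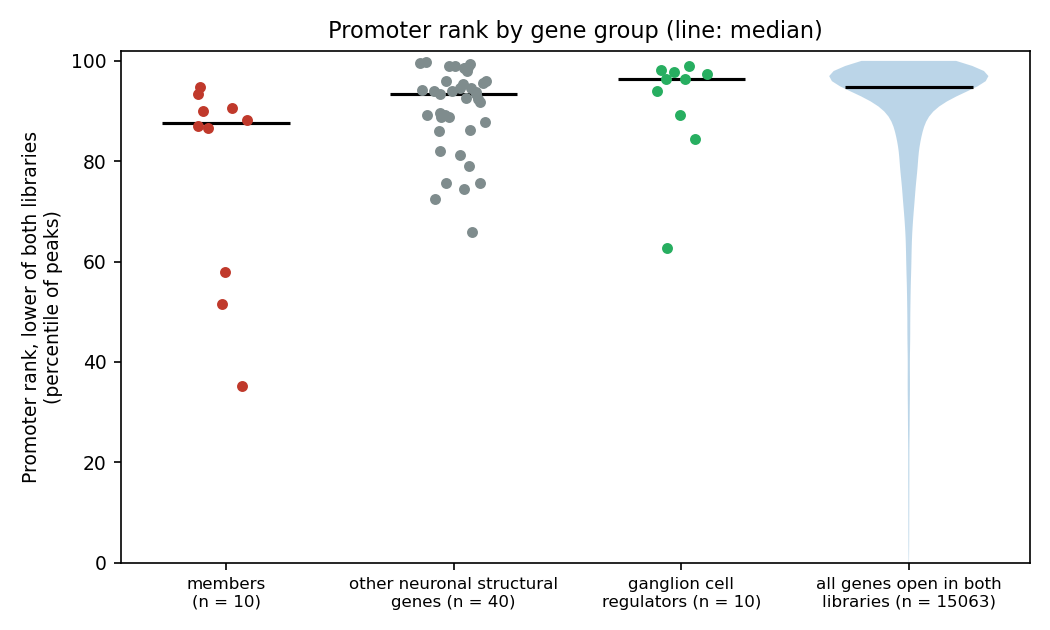
Promoter rank (lower of both libraries) of the 10 effector genes, the 40 other neuronal structural genes, the 10 ganglion cell regulators and, as a violin, the 15063 genes with a promoter peak in both libraries. Horizontal lines are medians, at 87.5, 93.4, 96.3 and 94.8 from left to right, and the 3 lowest effector genes are Sncg, Thy1 and Dcx.

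Away from the promoters, the windows of the 10 genes were fairly rich in distal peaks. The median was 8.21 distal peaks per 100 kb in replicate 1 and 10.5 in replicate 2, against 4.76 and 6.42 over the windows of all protein-coding genes. The 40 other neuronal genes had medians of 8.44 and 10.9, close to the 10 genes, and the ganglion cell regulators had 14.9 and 19.7. More distal peaks than the median gene in both libraries were found at 7 of 10 genes, against a background of 41.8%. The 3 others were Stmn2, which had 4.60 and 7.88 per 100 kb, Elavl4, which had 2.42 and 4.03, and Dcx, which had 2.82 and 3.94. These counts, and the background, include peaks nearer to the start of another gene. With only peaks nearest to its own coding TSS, Sncg fell from 9.57 to 0.957 per 100 kb (mean of both libraries). Thy1 fell likewise from 8.56 to 2.85.

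**Figure D3:**
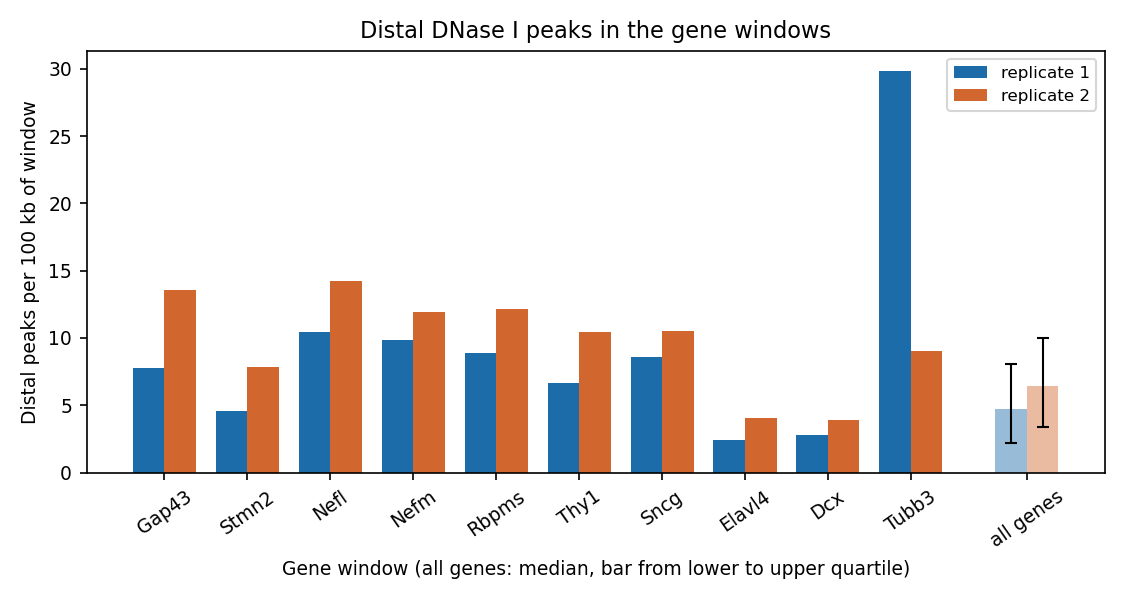
Distal peaks per 100 kb of window (gene body and 50 kb on either side) for each gene in replicate 1 and replicate 2, with the median of all protein-coding genes on the right and bars from its lower to its upper quartile. Elavl4 and Dcx lie below the all-gene median in both libraries, and Tubb3 differs between the replicates with 29.8 and 9.04.

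Counting each site once, the windows held 264 sites, of which 59 were promoter sites of the 10 genes, 31 promoter sites of other genes and 174 distal. Of the distal sites 72 were found in both libraries, 42 in replicate 1 alone and 60 in replicate 2 alone. Shared distal sites had median ranks of 60.4 and 70.8, while sites of replicate 1 alone had a median rank of 10.3 and those of replicate 2 alone 39.3. Of the 42 distal sites of replicate 1 alone, 23 lay in the Tubb3 window, with a median rank of 4.65. In the other windows with such sites the medians ran from 8.47 at Elavl4 to 67.8 at Stmn2. Distal sites lay in introns (113), between genes (44) and in exons (17). For 127 of the 174 the nearest coding TSS was that of one of the 10 genes, and the rest lay nearer to the start of another gene. The Nefl window lies inside that of Nefm, and sites there were counted once. No distal site of the 10 windows lay in the top 5 percent of its library in both replicates. The share of all distal peaks that do so was not counted, so this is not read as a trait of these windows. All distal peaks had median ranks of 43.2 in replicate 1 and 44.4 in replicate 2.

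The strongest distal site shared by both libraries is given for each gene, by the higher of the lower ranks. At Nefm and Nefl it was the same site, 1.18 kb into Nefm by its centre, in intron 1 and touching an exon. Its ranks of 95.2 and 93.7 were above those of the Nefm promoter in both libraries. At Gap43 it lay 34.5 kb into the gene in intron 1, with ranks of 88.5 and 93.7, also above the ranks at the coding start. At Rbpms it lay 1.93 kb upstream, with ranks of 90.2 and 92.5, and at Stmn2 85.5 kb downstream of the 5′ end between genes, with ranks of 89.6 and 90.8. At Sncg it lay 11.5 kb from the 5′ end, beyond the end of the gene, with ranks of 89.9 and 92.8, although the nearest coding TSS there is that of Fam25c. These values were above the Sncg promoter ranks of 57.9 and 69.4 in both libraries.

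At the other genes the strongest distal site was weaker or belonged by position to a neighbour. The Thy1 site (ranks 86.2 and 92.2) lay in an intron of Usp2, and the Tubb3 site (91.6 and 89.1) lay 49.9 kb upstream in an intron of Spire2. Within Tubb3 itself, 2 sites in intron 1, at 1.37 and 1.65 kb, had ranks of 84.1 and 89.1 and of 88.9 and 94.7. The Dcx site lay 33.1 kb upstream with ranks of 69.5 and 78.3, above the Dcx promoter in both libraries. Elavl4 had a single shared distal site, 106.8 kb into the gene, with ranks of 40.7 and 35.6. The other shared sites of its window of 248.2 kb were 9 at its own starts and 2 at a start of Agbl4, the stronger of which had ranks of 95.8 and 97.8.

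**Figure D4:**
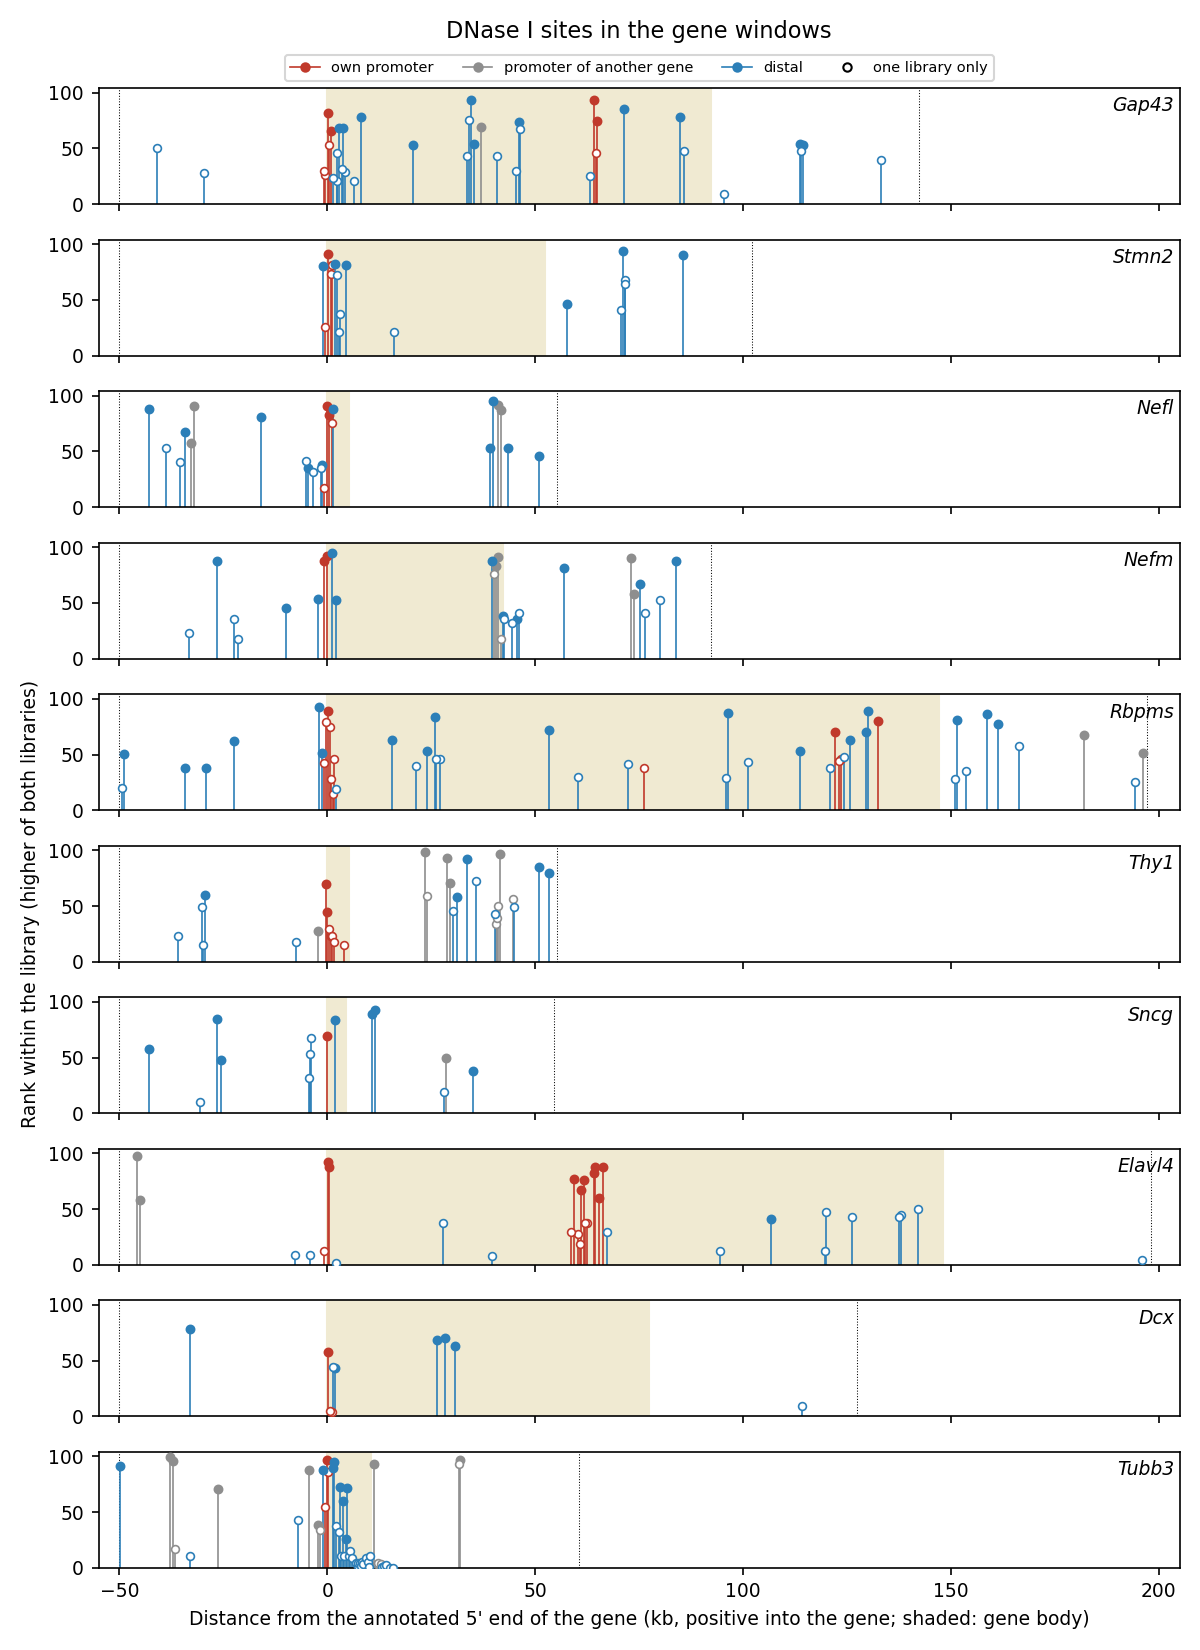
Every site in the 10 windows by its distance from the 5′ end of the gene (kb, positive into the gene) and by its rank (the higher of both libraries). Red marks promoter sites of the gene, grey promoter sites of other genes and blue distal sites, open circles were found in one library, shading is the gene body and dotted lines are the window ends within the plotted range. Elavl4 shows its alternative starts near 59 to 66 kb, and Tubb3 a run of low open circles inside and past the gene.

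The core of the RE1 element was found in peaks at several of the genes. The core has 13 fixed letters around 2 free ones and was searched on both strands. Exact matches were looked at after the search with up to 2 mismatches had been seen. There are 4 exact matches in the windows, at Stmn2, Nefm, Dcx and Tubb3, and each lies in a peak of both libraries. The Nefm match also lies in the Nefl window, so 5 of 10 windows hold such a match, against a background of 2.57% of all protein-coding genes (558 of 21728). An exact match anywhere in the window, in a peak or not, was found for the same 5 of 10 genes, against 5.02% of all genes. Across the assembled autosomes and chromosome X there are 620 exact matches, and 320 of them (51.6%) lie in a peak of both libraries.

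The peak of 150 bp around each of the 4 matches is printed on the strand of the gene, to show the core in its setting, with the core in capitals. In Nefm and Dcx the core stands on the strand opposite to the gene, so it reads there as its reverse complement.
Stmn2, chr3:8508156-8508305, plus strand: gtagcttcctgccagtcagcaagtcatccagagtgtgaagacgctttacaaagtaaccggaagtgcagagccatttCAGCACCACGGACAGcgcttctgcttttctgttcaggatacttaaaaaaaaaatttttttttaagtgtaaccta
Nefm, chr14:68125656-68125805, minus strand: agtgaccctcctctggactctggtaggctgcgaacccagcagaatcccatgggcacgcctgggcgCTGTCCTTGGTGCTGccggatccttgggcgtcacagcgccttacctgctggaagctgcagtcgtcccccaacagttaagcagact
Dcx, chrX:143904816-143904965, minus strand: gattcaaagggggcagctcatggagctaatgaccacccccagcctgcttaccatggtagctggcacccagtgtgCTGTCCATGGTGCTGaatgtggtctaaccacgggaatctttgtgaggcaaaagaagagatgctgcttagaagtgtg
Tubb3, chr8:123414416-123414565, plus strand: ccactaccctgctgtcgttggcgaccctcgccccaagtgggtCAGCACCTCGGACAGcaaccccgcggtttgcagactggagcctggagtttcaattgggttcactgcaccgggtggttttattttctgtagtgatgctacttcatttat

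The 4 sites lay at different places relative to the gene, 2 upstream and 2 inside it. At Stmn2 the core lies 1.12 kb upstream of the 5′ end, and its peak had scores of 52 and 85, ranks 74.4 and 80.5. At Nefm it lies 0.887 kb upstream, with scores of 68 and 99 and ranks of 83.2 and 87.4. At Dcx it lies 28.4 kb into the gene in intron 3, with scores of 46 and 62 and ranks of 70.2 and 65.5, above the Dcx promoter in both libraries. At Tubb3 it lies 3.04 kb into the gene in intron 1, with scores of 49 and 66 and ranks of 72.4 and 68.7. Peaks on exact matches over the whole genome had median ranks of 73.8 and 77.2, and 2 of the 4 sites (Stmn2 and Nefm) lay above these values and 2 (Dcx and Tubb3) below in both libraries. Gap43, Rbpms, Thy1, Sncg and Elavl4 had no exact match in their windows. Matches with 1 mismatch were found in the windows of 7 genes, and none of them lay in a peak of both libraries. Over the genome, 10.9% of matches with at most 1 mismatch (790 of 7237, exact ones included) lay in such a peak. With so few matches in the windows, the absence is not read as a trait of these genes.

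The same count was made for the other groups, with no test of a difference. Of the 40 other neuronal genes 5 had it in a peak of both libraries, namely Snap25, Nefh, Rbfox3, Ina and L1cam, and of the regulators 1 of 10, Pou4f3. Nefh and Ina encode the heavy neurofilament subunit and alpha-internexin. Window length differs, with medians of 147.3 kb for the 10 genes, 135.4 kb for the 40, 106.9 kb for the regulators and 117.4 kb for all genes. With 25 kb on either side in place of 50 kb, 4 of the 10 genes had a match, and with 100 kb 6 had one.

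**Figure D5:**
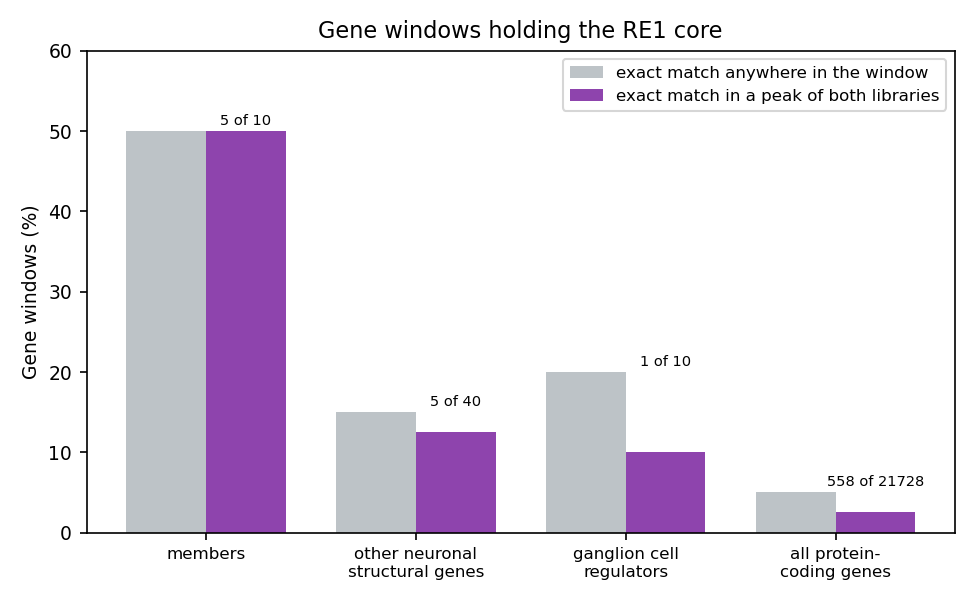
Share of gene windows (%) with an exact match to the RE1 core anywhere (grey) and in a peak of both libraries (purple), for the 10 effector genes, the 40 other neuronal genes, the 10 regulators and all 21728 protein-coding genes. The purple bars stand at 50, 12.5, 10 and 2.57%.

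Other short words were counted in the peaks, with few matches behind each share. Promoter peaks of the 10 genes numbered 36 in replicate 1 and 53 in replicate 2. The SP/KLF word GGGCGG was in 11.1% and 9.43% of them, against 30.3% and 27.8% of all promoter peaks. The word CCAAT, bound by NFY, was in 36.1% and 30.2%, against 19.5% and 19.6%. At internal starts of Elavl4 lay 5 of the 13 peaks with CCAAT in replicate 1 and 8 of the 16 in replicate 2, where Elavl4 gives 16 of the 53 promoter peaks. With 75 bp added on either side the shares were 50% and 34.0%, against 31.0% and 31.2%. The homeodomain core TAATTA was in 8.33% and 7.55%, against 1.84% and 2.46%, which rests on 3 and 4 peaks. No promoter peak of the 10 genes held the ETS word CCGGAAG, against 5.38% and 4.95% of all promoter peaks. In distal peaks the Onecut word ATCGAT was in 0 of 118 and 0 of 134 peaks, against 0.647% and 0.682% of all distal peaks, a share that would give less than 1 peak here. In promoter peaks of the 10 genes the same word was in 2.78% and 3.77%, which is 1 and 2 peaks. The share of all promoter peaks was 0.580% and 0.537%.

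A core of the CTCF motif, searched in a GGGGGC form and a GGTGGC form, stood in the strongest shared distal sites of Rbpms, Stmn2 and Thy1. CTCF is the insulator-binding factor of mammals. The Rbpms and Stmn2 sites, the strongest distal ones of those genes, are printed on the strand of the gene with the core in capitals, and at Rbpms the core is on the opposite strand.
Rbpms, chr8:33931716-33931865, minus strand: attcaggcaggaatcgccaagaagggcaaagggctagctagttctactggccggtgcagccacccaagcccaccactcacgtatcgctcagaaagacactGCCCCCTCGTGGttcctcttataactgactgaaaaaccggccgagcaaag
Stmn2, chr3:8594816-8594965, plus strand: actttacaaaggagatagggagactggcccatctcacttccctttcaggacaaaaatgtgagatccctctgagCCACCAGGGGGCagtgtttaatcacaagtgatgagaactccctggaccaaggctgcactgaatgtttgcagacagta
The GGGGGC form was in 1.69% and 1.49% of the distal peaks of the 10 windows, which is 2 peaks in each library, against 2.55% and 2.12% of all distal peaks. The GGTGGC form was in 0.847% and 0.746%, which is 1 peak in each library, against 2.42% and 1.91%. These shares cover distal peaks of every rank. The sites named here were picked by strength, and the share among the strongest shared distal sites of all genes was not counted.

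Hotspots covered a median of 3.78% of the 10 windows in replicate 1 and 6.66% in replicate 2, against 3.50% and 4.86% of the windows of all genes. Dcx had the least, with 1.09% and 2.20% of its window, in 6 and 9 hotspots. Elavl4 had 2.47% and 4.35%. Nefl had 7.08% and 8.84%, and Tubb3 had the most, with 14.6% and 10.04%. In 9 of the 10 windows replicate 2 had as many hotspots or more, and Tubb3 alone had more in replicate 1, against a background of 25.3% of genes with more in replicate 1.

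The Tubb3 window held 40 hotspots in replicate 1 and 16 in replicate 2, and 33 and 10 distal peaks. More distal peaks in replicate 1 were seen at 18.9% of all genes. Much of the excess was a run of 24 sites of replicate 1 alone between 3.33 and 15.8 kb from the 5′ end, 21 distal and 3 within 1 kb of a Def8 start, with scores of 2 to 16 and ranks of 14.8 or below. Over the same stretch there were 26 hotspots in replicate 1 and 5 in replicate 2, of which 18 and 3 stood at the ceiling. Peaks of replicate 1 alone with a rank under 15 numbered 28 in the Tubb3 window, against a median of 1 over all genes, and 84 genes (0.387%) had as many. The labels list an instrument model for replicate 1 that replicate 2 lacks, and its part in the run was not tested. The Tubb3 promoter and the RE1 site do not rest on it, since both are peaks of both libraries.

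Sharing between the libraries was counted over the distal peaks of the 10 windows, with the Nefl window on its own. Of these, 65.1% of 129 in replicate 1 and 57.0% of 149 in replicate 2 were overlapped by a peak of the other library. Over all distal peaks the shares were 71.2% and 49.9%. They were 62.7% and 55.2% without the Nefl window, and 77.6% of 85 and 53.2% of 124 without the Nefl and Tubb3 windows. The share in replicate 1 is thus below that of all distal peaks with the Tubb3 window and above it without.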

How the data were processed

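DNase-seq peak lists and hotspot lists of 2 retina libraries (embryonic day 14.5) were used, on mm10 per the labels. Each library had its own call of peaks and of hotspots, per the file lists deposited with them. Which aligner and caller were used, and how they were set, is not given in the sources used here. In the peak lists the deposited score (column 7) has no stated meaning and was turned into percentile ranks within each library, and the deposited hotspot value is a −log10 false discovery rate with a ceiling of 100. Exact duplicate lines (34 and 56) were removed. Read depth is unknown, so no interval or detection limit was computed.

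Genes came from GENCODE release M21 on GRCm38, the assembly of mm10, and sequences from the RefSeq FASTA of that build (GRCm38.p6). A promoter was 1000 bp on either side of any TSS, a window the gene body and 50 kb on either side, and an overlap at least 1 bp. Peaks of both libraries that overlap were merged into sites. CpG observed over expected was taken from 500 bp before to 500 bp after the 5′ end and split into 10 bins. Words were matched on both strands in the 150 bp of each peak. Programs were Python 3.11.15, numpy 2.4.6, pandas 2.3.3 and pysam 0.24.0, tested on simulated intervals and sequences.

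With 1 group and 2 libraries there is no contrast and no test, and values are given per library, replicate 1 before replicate 2. The genes named were all 10 genes, their strongest promoter and shared distal peaks, the 3 other neuronal genes with the highest lower rank and all 10 regulators, beside genes chosen after their values were seen (paralogs, the lowest 3, and those with an RE1 core). The 10 genes, the lists and the words were chosen with earlier results of these data known. Alternatives covered promoter and window sizes, TSS sets, stricter peaks, overlap and each library alone. Some items are not reported here.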

Additional observations from a re-analysis of the deposited data

How the results depend on the processing

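The count of genes with a promoter peak in both libraries stayed at 10 under the other promoter windows and TSS sets and in each library alone, and was 9 with the stronger 50 percent of peaks. The median promoter rank over both libraries was 89.5. It was 87.9 with the 5′ end alone and likewise with coding TSSs alone, where the internal Gap43 start is not counted, and 88.5 to 90.5 with either library left out. Distal peaks per 100 kb had a median of 9.35, ranged from 8.21 to 10.5 with a library left out, and by construction fell to 2.32 over 10 kb from any TSS, 5.24 for peaks nearest to the gene and 4.95 among the stronger 50 percent. The mean share of distal peaks found in the other library was 61.1%, and was 55.0% with an overlap of at least 75 bp, 77.9% among the stronger 50 percent and 67.3% without the Tubb3 window. Hotspot coverage had a mean of the library medians of 5.22% and lay between 3.78% and 6.66% in single libraries. RE1 core matches with up to 2 mismatches numbered 8 sites, 13 with 75 bp added on either side of the peak and 4 with no mismatch. Of 110 values for single genes under an alternative other than leaving out a library, 78 stayed within the spread between replicates and 32 moved.

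No paired analysis was possible because there is 1 group. Depth is unknown, so a missing peak does not show that a site is closed. The score has no stated scale, ranks do not compare amounts between libraries, and 2 libraries give little hold on error.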
